A study of Homo sapiens with 6 samples.

Results

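The lysosomal cathepsins are the proteases that digest proteins inside the lysosome, and 10 of their genes are described here, of 35238 symbols in the count table: CTSA, CTSB, CTSC, CTSD, CTSF, CTSH, CTSK, CTSL, CTSV and CTSZ. The genes were matched by symbol, and the family was selected on an earlier reading of the same knockout against wildtype values, in which CTSF stood higher in the knockout. The contrast between the genotypes is therefore given for these 10 genes as a description and carries no test. All 10 were found, and all 10 passed the filter on low counts that left 16954 genes of the table.

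RNA was sequenced from HAP1, a near-haploid human cell line that was derived from a chronic myeloid leukaemia line and grows attached. One group was wildtype and the other carried a knockout of DEGS1, the desaturase that turns dihydroceramide into ceramide, with 3 libraries each. Both groups were untreated, received the same medium with 5% serum and were collected 24 h after passage. The labels do not say how the knockout was made, how many clones it came from, or whether the 3 libraries of a genotype were separate cultures, so errors and p-values measure the spread between libraries, which may be technical.

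Cathepsins are made as inactive precursors, receive a mannose 6-phosphate tag in the Golgi, are sorted to the lysosome by receptors for that tag and are activated there by cleavage at acid pH. Most belong to the papain family of cysteine proteases and are restrained by small protein inhibitors, the cystatins, while CTSD is an aspartic protease and CTSA a serine carboxypeptidase. Many lysosomal genes carry a short palindrome in their promoter, the core of the element that is recognised by the factors TFEB, TFE3 and MITF. Loss of CTSD or CTSF causes forms of neuronal ceroid lipofuscinosis, in which undigested material builds up in lysosomes.

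The RefSeq promoter table (GRCh38.p14) held 8 of the 10 genes. In the 250 bases before the start, the E-box palindrome CACGTG was found in 3 of the 8, CTSA, CTSD and CTSF, and in 6.34% of 35116 promoters of the same length. CTSA and CTSF each had it at 2 places, as did 0.535% of all promoters. The longer palindrome TCACGTGA was found in CTSA alone of the 8, and in 0.854% of all promoters. It contains the shorter one, and both read the same on either strand. The promoter of CTSF is shown because this gene differed most between the genotypes, and the windows of CTSA and CTSD because they hold the same letters in members that differed less. Capitals mark CACGTG, each sequence is written on the strand of its gene, and a match is only a match of letters.

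CTSF, chr11:66568607-66568856, minus strand: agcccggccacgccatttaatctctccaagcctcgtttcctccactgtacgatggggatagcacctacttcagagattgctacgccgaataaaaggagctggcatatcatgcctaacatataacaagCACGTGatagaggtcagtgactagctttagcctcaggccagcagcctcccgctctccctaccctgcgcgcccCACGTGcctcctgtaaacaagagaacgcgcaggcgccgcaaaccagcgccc
CTSA first site, chr20:45891283-45891308, plus strand: ggaagactgtCACGTGgcgccggagt
CTSA second site, chr20:45891300-45891325, plus strand: cgccggagttCACGTGactcgtacac
CTSD, chr11:1763959-1763984, minus strand: cggccgcgccCACGTGaccggtccgg

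The places in CTSF begin 123 and 51 bases before the start of the gene, those in CTSA 42 and 25 bases and that in CTSD 47 bases before it. CTSC, CTSH, CTSL, CTSV and CTSZ had no CACGTG in this window. No binding was measured in this study.

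Levels are given as CPM, the counts of a gene relative to all counts of its library at TMM-scaled library sizes, and differences as log2 fold changes, knockout over wildtype, with the standard error (SE) of the fit to 3 libraries per genotype. The wildtype libraries held 17322756 to 28988522 counts and the knockout libraries 19389644 to 27659835, and a count of 3 corresponded to 0.109 to 0.161 CPM. DEGS1 stood at 95.5 to 123 CPM in wildtype and at 6.88 to 10.4 CPM in the knockout. Wildtype replicate 2 stood apart from its group. Its median gene differed by 0.23 and 0.29 on the log2 scale from wildtype replicates 1 and 3, which differed by 0.09 from each other. From knockout replicate 2 it differed by 0.13. Knockout replicate 2 differed by 0.18 and 0.14 from knockout replicates 1 and 3, which differed by 0.11 from each other. The libraries of number 2 share a code in the labels whose meaning is not stated. A fit without wildtype replicate 2 still keeps knockout replicate 2. Of the 16954 genes tested with edgeR, 756 had an adjusted p under 0.05 (4.46%), and 3825 did so without wildtype replicate 2. Calls that change without this library are given both ways for the cathepsins and, as counts, for each list of genes that act with them.

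CTSF was higher in every knockout library than in any wildtype library, and CTSC was lower in each of them. These were the 2 cathepsins that passed the threshold of the fit over all genes, 1 of 10 higher, where 1.51% of all tested genes were called higher, and 1 of 10 lower, where 2.95% were called lower. Since the family was chosen with this contrast known, nothing is read from those shares. The other 8 had log2 fold changes from 0.01 to 0.24 and were not called. The libraries of the 2 genotypes did not overlap in 4 of the 10, CTSB, CTSC, CTSD and CTSF, and in 20.8% of all tested genes. The median log2 fold change was 0.18 over the 10 genes and 0.17 without CTSF, beside -0.02 over all tested genes, and 9 of the 10 values were positive, beside 8017 of 16954. All tested genes include many with low counts, so this background is not matched to the level of the cathepsins. The median without CTSF was smaller, 0.10, once the median of each chromosome was removed, as described below. In bulk RNA, fewer cells that express a gene and less of its RNA per cell cannot be told apart.

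**Figure D1:**
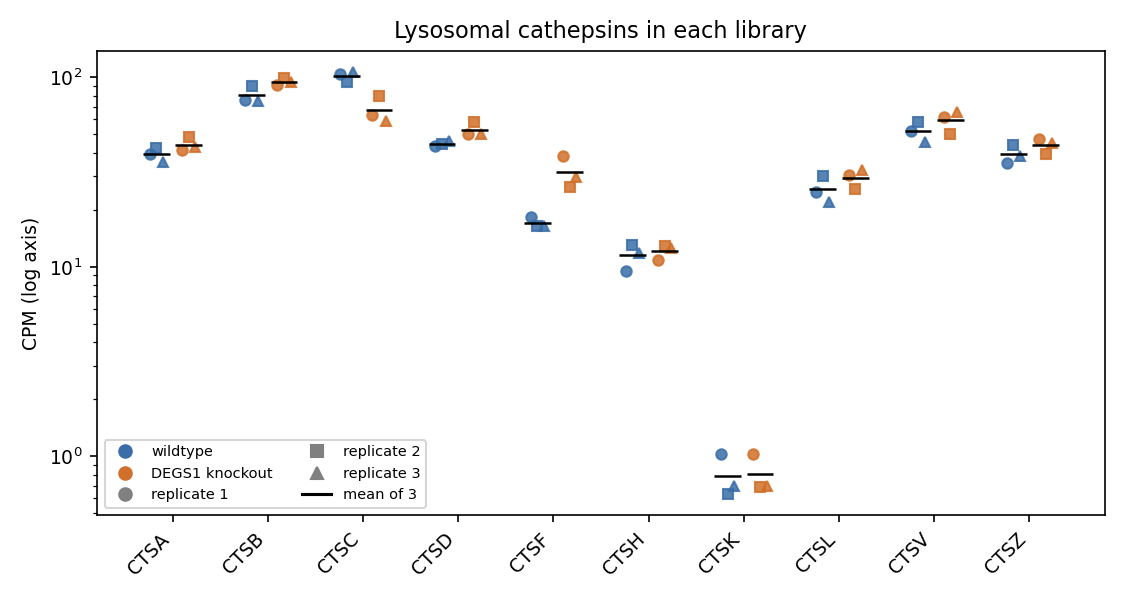
CPM (log axis) of the 10 lysosomal cathepsins in each library, wildtype in blue and DEGS1 knockout in orange, with the replicate number as the marker shape and a bar at the mean of 3 libraries. CTSF lies higher in all 3 knockout libraries (26.5 to 38.3 CPM) than in wildtype (16.5 to 18.4 CPM), CTSC lies lower, and CTSK is near 1 CPM throughout.

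CTSF encodes a papain-family endopeptidase with an unusually long propeptide that contains a cystatin-like domain. It stood at 18.4, 16.5 and 16.5 CPM in wildtype replicates 1 to 3 and at 38.3, 26.5 and 29.8 CPM in knockout replicates 1 to 3. The wildtype libraries lay close together and the knockout libraries apart, with a coefficient of variation of 6.42% against 19.2%. Knockout replicate 1 was the highest and knockout replicate 2 the lowest of the 3, yet that library was still above each wildtype library. The means were 17.1 ± 1.1 and 31.5 ± 6.06 CPM (SD over 3 libraries each), and the log2 fold change was 0.88 (SE 0.15), or 1.84-fold. It was 0.85 without wildtype replicate 2 and 0.73 without knockout replicate 1, and CTSF was called in each of 14 other settings.

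The difference in CTSF can also be read inside each library, where no scaling between libraries enters. CTSF had 4.77, 3.95 and 4.30 counts for every 100 counts of the other 9 cathepsins together in wildtype replicates 1 to 3. In the knockout it had 9.64, 6.40 and 7.38. This restates the counts of CTSF that the family was selected on, and the other 9 include CTSC, so it adds no separate evidence.

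CTSC is the dipeptidyl peptidase that removes pairs of residues from the start of proteins and, in immune cells, activates the serine proteases of granules. It stood at 104, 94.5 and 107 CPM in wildtype replicates 1 to 3 and at 63.5, 80.0 and 59.0 CPM in knockout replicates 1 to 3. Knockout replicate 2 was again the library nearest to wildtype, but it stayed below the lowest wildtype library. The means were 102 ± 6.57 and 67.5 ± 11.0 CPM (SD over 3 libraries each), and the log2 fold change was -0.59 (SE 0.13), so that wildtype was 1.51-fold higher. The call was lost without wildtype replicate 1 (log2 fold change -0.58), without knockout replicate 1 (-0.53) and without knockout replicate 3 (-0.50), and was kept in the other 11 of 14 settings. For every 100 counts of CTSC there were 17.7, 17.5 and 15.4 counts of CTSF in wildtype and 60.3, 33.2 and 50.5 in the knockout. This ratio sets the member called higher over the one called lower, so it restates both values and adds no separate evidence.

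CTSB and CTSD are among the major proteases of most lysosomes. CTSB, a cysteine protease that cuts inside proteins and also removes pairs of residues from their end, stood at 76.1, 90.0 and 75.3 CPM in wildtype and at 91.1, 99.2 and 95.1 CPM in the knockout. Wildtype replicate 2 nearly reached the lowest knockout library. The log2 fold change was 0.24 (SE 0.11), and without wildtype replicate 2 it was 0.33 and CTSB was called. Called higher in that fit were 1835 of 17305 genes. CTSD, the aspartic endopeptidase, stood at 43.4, 44.3 and 46.3 CPM in wildtype and at 49.97, 57.9 and 50.5 CPM in the knockout, with a log2 fold change of 0.24 (SE 0.10). Its groups did not overlap and it was called in none of the 14 other settings.

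CTSL and CTSV are close relatives, CTSL being an endopeptidase of most tissues and CTSV one known from thymus, testis and cornea. CTSL stood at 25.0, 30.1 and 22.0 CPM in wildtype and at 30.5, 25.9 and 32.4 CPM in the knockout (log2 fold change 0.20, SE 0.14). CTSV stood at 52.1, 58.0 and 45.9 CPM in wildtype and at 61.6, 50.4 and 65.8 CPM in the knockout (log2 fold change 0.19, SE 0.13). In both genes wildtype replicate 2 was the highest wildtype library and knockout replicate 2 the lowest knockout library, so that the groups crossed. Without wildtype replicate 2 the log2 fold changes were 0.34 and 0.28, and neither was called.

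CTSZ, CTSA and CTSH, which trim proteins from their ends, also overlapped between the genotypes. CTSZ, a cysteine carboxypeptidase, stood at 35.1, 44.1 and 38.5 CPM in wildtype and at 47.5, 39.6 and 45.01 CPM in the knockout (log2 fold change 0.17, SE 0.12). CTSA, the serine carboxypeptidase that also holds the sialidase NEU1 and the galactosidase GLB1 in a complex, stood at 39.6, 42.5 and 35.9 CPM in wildtype and at 41.1, 48.4 and 43.0 CPM in the knockout (0.17, SE 0.11). CTSH, an aminopeptidase, stood at 9.51, 13.0 and 11.9 CPM in wildtype and at 10.9, 12.9 and 12.6 CPM in the knockout (0.08, SE 0.16). Without wildtype replicate 2 the log2 fold changes of CTSZ, CTSA and CTSH were 0.26, 0.23 and 0.19, and none of the 3 was called. The value of CTSH turned negative (-0.04) without wildtype replicate 1.

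CTSK, the collagen-degrading protease of osteoclasts, was the lowest of the 10. Wildtype replicates 1 to 3 held 26, 17 and 13 of its counts and the knockout libraries 20, 18 and 19, or 0.631 to 1.02 CPM against 0.688 to 1.03 CPM. Its log2 fold change of 0.01 had an SE of 0.38, so a difference of the size seen in CTSC was not detectable at this depth. Its sign also depended on the setting, with 8 positive and 5 negative values in the 13 other settings that kept the gene.

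**Figure D2:**
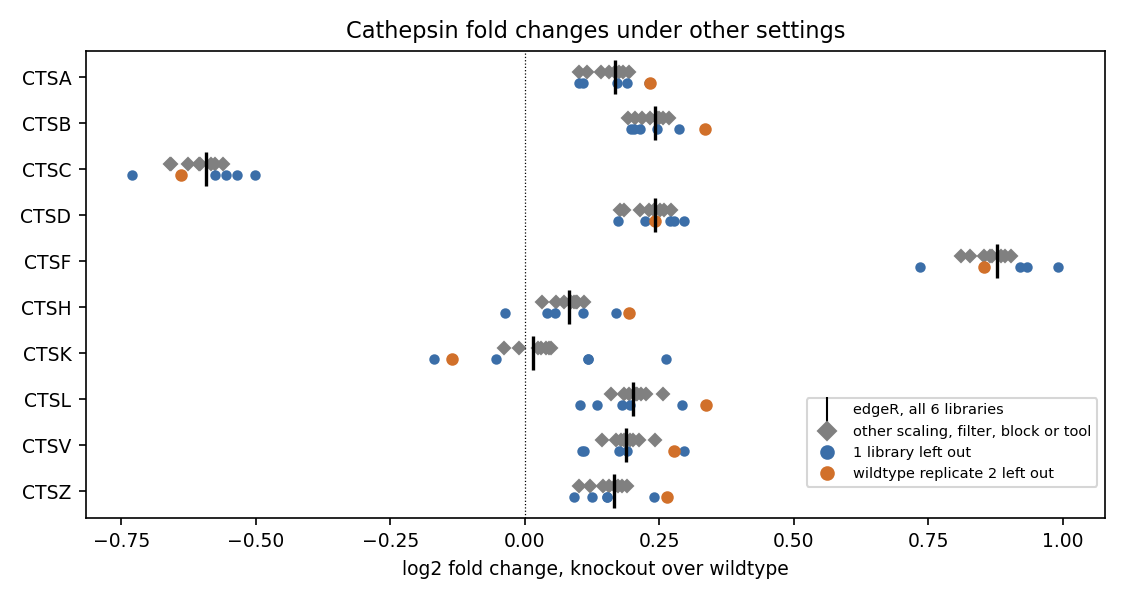
Log2 fold change (knockout over wildtype) of each cathepsin with all 6 libraries (black bar), under another scaling, filter, block or tool (grey), and with 1 library left out (blue, or orange for wildtype replicate 2). CTSF stays between 0.73 and 0.99 and CTSC between -0.73 and -0.50, while CTSH and CTSK have values on both sides of 0.

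To compare levels between genes, CPM were divided by the length of the longest GENCODE release 29 transcript. On this scale CTSZ was the highest in wildtype at 26.2 ± 3.01 CPM per kb (SD, n = 3), followed by CTSD (21.0 ± 0.695) and CTSB (20.8 ± 2.13), whose ranges over the 3 libraries overlapped. CTSC came next (16.6 ± 1.07). CTSA (12.9 ± 1.08), CTSV (12.025 ± 1.40) and CTSL (11.8 ± 1.90) followed with overlapping ranges. CTSF was the eighth at 8.42 ± 0.54 CPM per kb, below the range of CTSL and above that of CTSH (5.24 ± 0.821), and CTSK was the last (0.463 ± 0.124). In the knockout CTSF and CTSC changed places in this order, CTSF becoming the fourth at 15.5 ± 2.98 CPM per kb and CTSC the eighth at 11.0 ± 1.80, while the other 8 kept their ranks. In the knockout the range of CTSF, from 13.0 to 18.8 CPM per kb, overlapped those of CTSA, CTSV and CTSL, and its lowest library (13.040) was just under the highest of CTSC (13.053). The order itself depends on the length: with the median transcript length CTSC (139 CPM per kb) and CTSB (139) led in wildtype, and CTSF moved from the seventh place to the fifth.

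**Figure D3:**
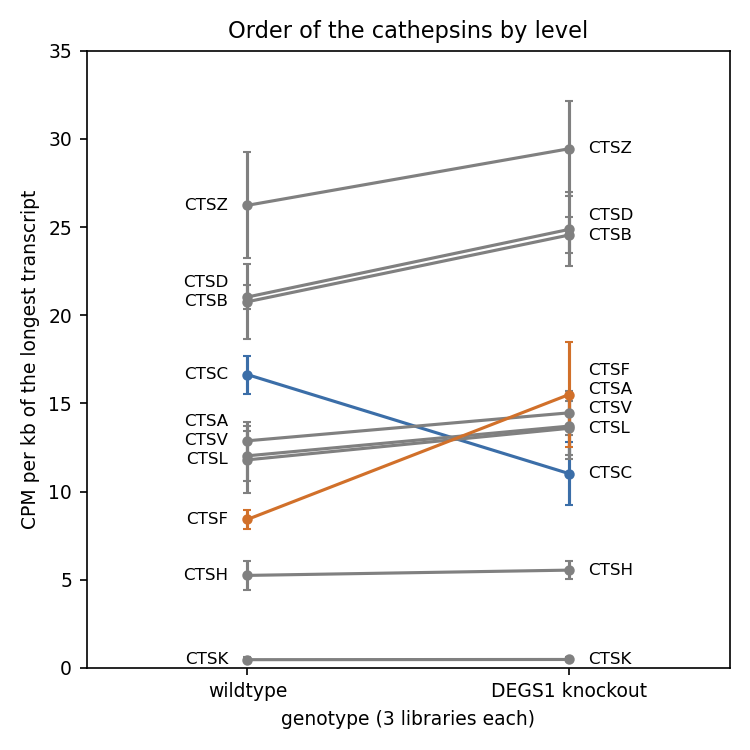
Mean level of each cathepsin in CPM per kb of its longest transcript in wildtype (left) and DEGS1 knockout (right), with error bars of 1 SD over 3 libraries; names are moved apart where points are close. CTSF (orange) goes from 8.42 to 15.5 and CTSC (blue) from 16.6 to 11.0, and the other 8 keep their ranks.

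Summed over the 10 genes, the level was 131, 145 and 131 CPM per kb in wildtype replicates 1 to 3 and 155, 151 and 153 in the knockout. CTSF made up 5.61% to 6.90% of this sum in wildtype and 8.63% to 12.1% in the knockout. CTSC made up 10.7% to 13.3% in wildtype and 6.30% to 8.64% in the knockout. The ranges of these shares did not overlap between the genotypes for either gene. Both shares restate the levels of CTSF and CTSC given above, so they add no separate evidence.

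The counting could bear on some of these genes. Of the 75-base stretches in the longest transcript, the read length here, none of those of CTSF, CTSC, CTSL, CTSV, CTSA, CTSH, CTSK or CTSZ occurred in a GENCODE transcript of another gene, and 0.184% of those of CTSB did. For CTSD it was 60.1%, all shared with an annotated gene on the same strand whose transcripts include CTSD exons, so its counts depend on an annotation that is not given in the sources used here. Exons of CTSA overlap those of NEURL2 and PLTP on the opposite strand, and the strand setting of the counting is not given either. CTSLP2, a pseudogene of CTSL, had 20, 21 and 27 counts in the wildtype libraries and 14, 19 and 27 in those of the knockout, against 410 to 888 counts of CTSL.

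CTSF lies on chromosome 11, as do CTSC and CTSD. The median log2 fold change of 570 genes on this chromosome, those with a mean log2 CPM above 3, was 0.09, and the medians by the same rule of the chromosomes that hold the other members, 1, 8, 9, 15 and 20, were between -0.04 and 0.09. With the chromosome medians removed the log2 fold change of CTSF was 0.81 and that of CTSC -0.66. The median of the cathepsins without CTSF was then 0.10 in place of 0.17, beside -0.02 over all tested genes. No neighbour of CTSF was called. Of the 3 listed genes on each side, BBS1, ZDHHC24 and ACTN3 on one and CCDC87, CCS and RBM14 on the other, 5 were tested and 0 passed edgeR's test, 0 had an unadjusted p under 0.05 and DESeq2 called 0. ZDHHC24, a palmitoyltransferase gene, stood at a log2 difference of 0.19 (± 0.18 SE, adjusted p = 0.627 by edgeR), and CCS, the copper chaperone of superoxide dismutase, at 0.10 (± 0.20 SE, adjusted p = 0.832 by edgeR). RBM14 was lower in each knockout library, at -0.13 (± 0.10 SE, adjusted p = 0.545 by edgeR).

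**Figure D4:**
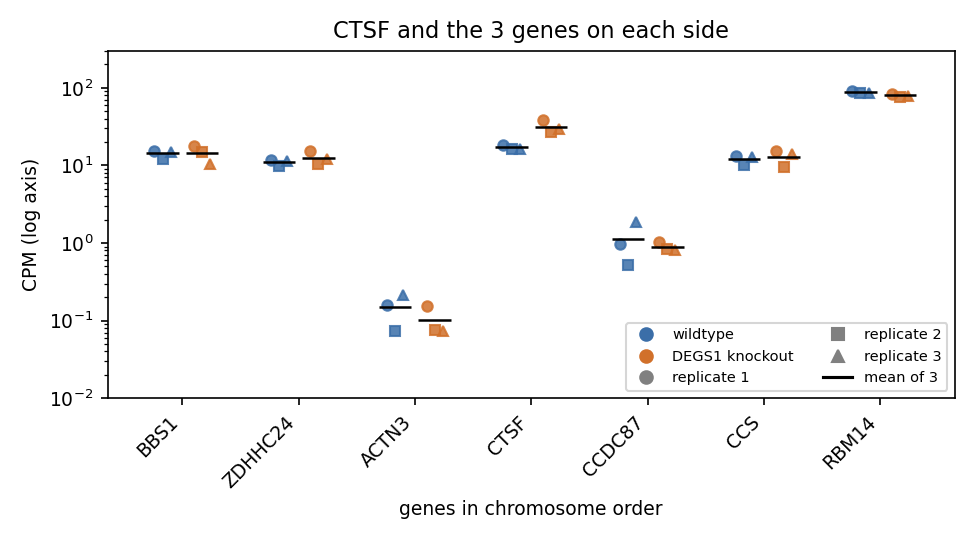
CPM (log axis) in each library of CTSF and of the 3 listed genes on each side of it in chromosome order, wildtype in blue and DEGS1 knockout in orange, with a bar at the mean of 3 libraries. CTSF is the gene of the 7 whose knockout libraries all lie above wildtype, and ACTN3 is near the level of a few counts.

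The number of calls among the genes that act with the cathepsins depended on the setting. In 8 lists of 66 such genes, 55 were tested and 1 passed edgeR's test (1.82%), beside 4.46% of all tested genes. At an unadjusted p under 0.05 there were 11 (20%), beside 16.5% of all tested genes. DESeq2 called 2 of the 57 list genes it tested (3.51%), beside 4.84% of all genes it tested. The median log2 fold change of the 55 was 0.08. Without wildtype replicate 2 the count was 18 higher and 3 lower (CTSS, CTSW and TPP1) of 55 (38.2%). In that fit 22.1% of all genes tested were called, 1835 higher and 1990 lower of 17305. With any other library left out it was 0.

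The gene that passed was GNPTAB, of the 14 genes of mannose 6-phosphate tagging and sorting. It encodes the catalytic subunits of the enzyme that starts the tag on lysosomal precursors, cathepsins included. GNPTAB stood at 113, 111 and 105 CPM in wildtype replicates 1 to 3 and at 150, 158 and 144 CPM in the knockout. No library overlapped between the genotypes, and the log2 difference was 0.45 (± 0.11 SE, adjusted p = 0.0354 by edgeR). It was called in 8 of 14 other settings, with an adjusted p of 0.00391 to 0.156, and was lost on leaving out any library other than wildtype replicate 2, and with chromosome medians removed (0.0578). With all 6 libraries the receptors that carry tagged precursors were not called: M6PR stood at a log2 difference of 0.28 (± 0.16 SE, adjusted p = 0.417 by edgeR) and IGF2R at -0.09 (± 0.17 SE, adjusted p = 0.825 by edgeR). Without wildtype replicate 2, M6PR was called higher at 0.48 (± 0.10 SE, adjusted p = 0.00662 by edgeR), and IGF2R was at -0.26 (± 0.11 SE, adjusted p = 0.113 by edgeR). In that fit 4 of the 14 genes in all were called higher and 0 lower, beside 1835 and 1990 of 17305 genes. With all libraries the list had 8 positive and 6 negative values with a median of 0.04.

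Of the other peptidases of the lysosome, 5 of 6 were tested and 0 passed edgeR's test or DESeq2's, with 2 at an unadjusted p under 0.05 and a median log2 fold change of 0.30. PRCP, a serine carboxypeptidase, stood at 66.4, 81.6 and 60.3 CPM in wildtype and at 85.1, 102 and 94.8 CPM in the knockout (0.44 ± 0.13 SE on the log2 scale, adjusted p = 0.0938 by edgeR), and was called in 4 of 14 other settings (adjusted p 0.00197 to 0.34). SCPEP1, a relative of CTSA, had a value of 0.42 (± 0.13 SE, adjusted p = 0.118 by edgeR). Both lay above wildtype in each knockout library, and without wildtype replicate 2 both were called higher. TPP1, the tripeptidyl peptidase whose loss also causes a ceroid lipofuscinosis, was at -0.35 (± 0.18 SE, adjusted p = 0.388 by edgeR) and LGMN, the asparaginyl endopeptidase that cleaves cathepsin precursors, was at 0.706 to 1.81 CPM in the 6 libraries. Without wildtype replicate 2, 2 of the 5 were called higher and 1 lower, beside 1835 and 1990 of 17305 genes. The gene called lower was TPP1, at -0.49 (± 0.16 SE, adjusted p = 0.0444 by edgeR).

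The cathepsins outside the 10 were low. CTSS, CTSW and CTSG, known from myeloid and lymphoid cells, stood at 1.26 to 3.37 CPM, at 0.535 to 1.57 CPM and at 0 counts in all 6 libraries, CTSO at 0.511 to 1.37 CPM and CTSE at 0.157 to 0.321 CPM. Of the 3 tested, 0 passed edgeR's test or DESeq2's and 0 had an unadjusted p under 0.05. CTSW had the smallest p (-0.73 ± 0.42 SE on the log2 scale, adjusted p = 0.426 by edgeR, called in 1 of 13 other settings, the fit without wildtype replicate 2). In that fit 2 of the 3 were called lower, beside 1990 of 17305 genes. These were CTSW at -1.05 (± 0.34 SE, adjusted p = 0.044 by edgeR) and CTSS at -0.78 (± 0.24 SE, adjusted p = 0.0347 by edgeR). Of 8 myeloid markers, SPI1 and MPO were at 0 counts in every library, and the 8 together summed to 4.90 to 7.86 CPM in wildtype and 3.90 to 5.49 CPM in the knockout. Of the 4 tested, 0 passed edgeR's test or DESeq2's and 0 had an unadjusted p under 0.05, and the part of these markers in the values above was not tested. The 4 osteoclast markers summed to at most 0.536 CPM in any library, with OCSTAMP at 0 throughout, and the 4 markers of keratinocytes and thymic epithelium to at most 0.65 CPM, with KRT5 and KRT14 at 0 throughout.

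The inhibitors were represented by CSTB, the main cystatin inside cells, and CST3, the main secreted one. CSTB stood at 45.4 to 65.9 CPM in wildtype and 57.2 to 61.1 CPM in the knockout (0.14 ± 0.14 SE on the log2 scale, adjusted p = 0.66 by edgeR), and CST3 had a value of 0.11 (± 0.14 SE, adjusted p = 0.741 by edgeR). The other 7 of 9 listed cystatins did not pass the filter, 5 of them at 0 counts throughout. Neither tested cystatin passed DESeq2's test, and 0 had an unadjusted p under 0.05. Wildtype replicate 2 held the highest CSTB value of all 6 libraries, and without it CSTB was called higher at 0.34 (± 0.09 SE, adjusted p = 0.0199 by edgeR) while CST3 was not.

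NEU1 and GLB1, the enzymes bound to CTSA, were not called by edgeR or DESeq2, and 1 of the 2 had an unadjusted p under 0.05. NEU1 stood at 59.5, 59.5 and 54.1 CPM in wildtype and at 74.8, 86.2 and 65.9 CPM in the knockout, without overlap (0.39 ± 0.12 SE on the log2 scale, adjusted p = 0.101 by edgeR, called in 2 of 14 other settings, the replicate block and the fit without wildtype replicate 2). GLB1 had a value of 0.17 (± 0.13 SE, adjusted p = 0.559 by edgeR).

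Of 16 subunits of the proton pump that acidifies the lysosome, 0 passed edgeR's test or DESeq2's and 3 had an unadjusted p under 0.05, with 12 positive values and a median of 0.08. ATP6V0E1 had the smallest p (0.44 ± 0.12 SE on the log2 scale, adjusted p = 0.0683 by edgeR) and was called in 5 of 14 other settings. Leaving out wildtype replicate 2, 7 of the 16 were called higher and 0 lower, with a median of 0.23. Over all genes of that fit, 1835 of 17305 were called higher and 1990 lower. Of 10 lysosomal membrane genes, 0 passed edgeR's test, 2 had an unadjusted p under 0.05 and DESeq2 called 1, with a median of 0.11. That gene was CD63, a tetraspanin, at 105 to 148 CPM in wildtype and 162 to 185 CPM in the knockout (0.46 ± 0.14 SE on the log2 scale, adjusted p = 0.0951 by edgeR, called in 2 of 14 other settings). In the fit without wildtype replicate 2, 3 of the 10 were called higher and 0 lower, beside 1835 and 1990 of 17305 genes. CD63 was among the 3, at 0.61 (± 0.10 SE, adjusted p = 0.00137 by edgeR). Of the 3 tested factors of the TFEB family, 0 passed edgeR's test or DESeq2's and 1 had an unadjusted p under 0.05. This was MITF, at 6.09 to 7.08 CPM in wildtype and 8.79 to 9.18 CPM in the knockout (0.45 ± 0.17 SE on the log2 scale, adjusted p = 0.191 by edgeR, called in 0 of 14 other settings), while TFEB had a value of -0.10 (± 0.25 SE, adjusted p = 0.874 by edgeR) and TFE3 one of 0.16 (± 0.13 SE, adjusted p = 0.574 by edgeR). Of these 3, 0 were called without wildtype replicate 2 either.

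**Figure D5:**
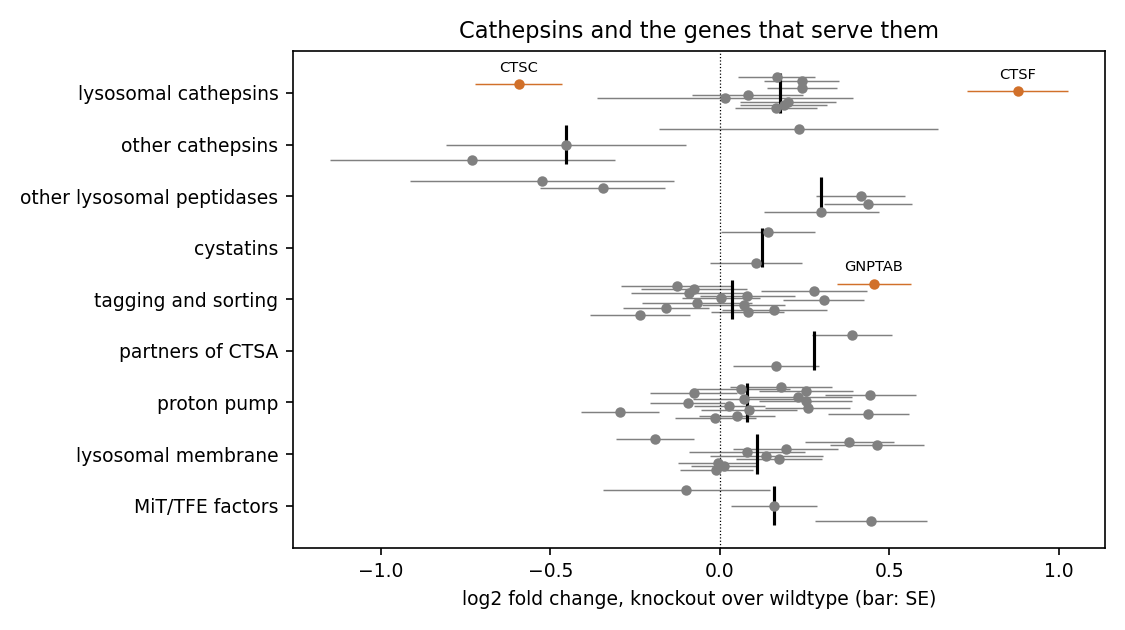
Log2 fold change (knockout over wildtype) of each tested gene, with a bar of 1 SE, for the lysosomal cathepsins and 8 lists of genes that act with them; orange marks genes past the threshold of the edgeR fit and a black line the median of each list. CTSF (0.88) and CTSC (-0.59) lie outside the range of the other 8 members (0.01 to 0.24), CTSW in the list of other cathepsins is at -0.73, and GNPTAB (0.45) is the gene called in the 8 lists.

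Genes whose profile over the 6 libraries was most like that of CTSF were found by the root mean square difference between log2 CPM values, each gene centred on its own mean. The 5 nearest were FAM84B (0.12 on the log2 scale), PPP2R2B (0.12), RHOXF1P1 (0.13), CLRN1 (0.13) and SLC8A1 (0.14), of which PPP2R2B encodes a regulatory subunit of a phosphatase and SLC8A1 a sodium and calcium exchanger. RHOXF1P1 is a pseudogene whose reads may be shared with copies, and CLRN1 was under 1 CPM. PPP2R2B stood at 14.4, 12.8 and 10.6 CPM in wildtype and at 29.3, 22.6 and 22.3 CPM in the knockout, with its highest value in knockout replicate 1 as in CTSF. Since the 5 genes were picked for their likeness to CTSF, their rise in the knockout and a shared highest library follow from that choice. No other cathepsin was among the 5, which already follows from the fold changes of the other 9 (-0.59 to 0.24).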

How the data were processed

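The authors deposited whole-number read counts per gene symbol, not normalized, for 3 wildtype and 3 DEGS1 knockout libraries. Per the labels' protocols, libraries were made with a stranded kit from 1 ug of total RNA each and sequenced in single 75-base reads. The build hg19 and bcl2fastq 2.20 are named, per the submitters' processing notes. Aligner, counter, annotation and strand setting: not given in the sources used here.

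The test was that of edgeR 4.0.16 under R 4.3.3 (TMM scaling, filterByExpr, robust quasi-likelihood F test on genotype, Benjamini-Hochberg over all genes tested, threshold 0.05). Each SE was obtained by dividing the size of the log2 fold change by the root of its F statistic. The 14 alternatives were DESeq2 1.42.0, other scalings and filters, a replicate block, removal of chromosome medians and leaving out each library. The procedure was tested on simulated data with independent libraries. These held no difference such as that of wildtype replicate 2 from its group, so that test does not bear on it. Chromosome and gene order came from RefSeq (GRCh38.p14, 27303 symbols placed), transcripts from GENCODE release 29. Since these are of another build than the counts, only the promoter sequences carry coordinates. Floors cover counting error only, since the labels name no molecular identifiers. All pairs of libraries differed by more than sampling noise (chi-square per degree of freedom 11.7 to 48.2).

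The cathepsins and the lists of lysosomal genes were chosen with earlier results of these data known. Named genes were DEGS1, the 10 cathepsins, each called gene of a list or else the one with the smallest p, the neighbours of CTSF, and the 5 genes most like it. Other genes of the lists, named as examples of their roles, were chosen after their values were seen.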

Additional observations from a re-analysis of the deposited data

How the results depend on the processing

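In 14 other settings CTSF kept a positive and CTSC a negative log2 fold change, and all 139 values of the 10 cathepsins moved by less than the spread between libraries. Leaving out 1 library gave 380 to 3825 called genes in place of 756, 1 to 2 cathepsins called higher (CTSB in addition without wildtype replicate 2) and 0 to 1 called lower. Called higher without wildtype replicate 2 were 1835 of 17305 genes. Over all genes the number called was 441 on leaving out wildtype replicate 1, and 424 and 380 on leaving out knockout replicates 1 and 3. Among the genes that act with the cathepsins, 1 was called (1.82%, beside 4.46% of all genes). It was 3 with upper-quartile scaling (5.45% beside 4.35%) and 3 with library size only (5.45% beside 3.92%). With the DESeq2 Wald test it was 2 (3.51% beside 4.84%), with no filter 2 (3.33% beside 3.95%) and with chromosome medians removed 0 (beside 3.96%). With 1 library left out it was 0 to 21, the 21 without wildtype replicate 2 (38.2% beside 22.1%). The cause was not tested. With the replicate number as a block (replicate block) the count of these genes was 5 (ATP6V0E1, GNPTAB, LAMP2, NEU1 and PRCP), or 9.09% beside 6.38%. In that setting the count over all genes was 1082 and the log2 fold change of CTSF 0.87. Libraries of the same number share a code in the labels whose meaning is not stated, and the data paired them only in part. Their deviations from the group means correlated at 0.257, 0.408 and -0.23 for numbers 1 to 3. For wildtype replicates 1 and 2 the knockout library of the same number was the best match. Wildtype replicate 3 correlated best with knockout replicate 1 (0.587). Whether the code marks a batch was not tested. Depth limits CTSK and the cathepsins outside the 10, which have few counts.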
